A study of Sus scrofa with 23 samples.

Results

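GPX3, the secreted glutathione peroxidase, and 9 further antioxidant enzymes (GPX1, GPX4, SOD1, SOD2, CAT, PRDX2, PRDX3, PRDX6 and TXNRD1) were followed in the Longissimus muscle of 23 pigs. GPX3 had its lowest levels in the pigs of the efficient line, and its most variable levels in feed-restricted pigs of the inefficient line. GPX3 was chosen by its measured levels in these groups, so its levels are given as a description with no test. The other enzymes were chosen by their role beside it, with earlier results of these data known. Of 43603 array probes, 43 were found for the members by a gene name or by a symbol in parentheses in the probe description, and they covered 8 of the 10 genes. GPX3 had 4 of them, GPX1 6, GPX4 3, SOD1 5, SOD2 5, CAT 9, PRDX6 6 and TXNRD1 5. PRDX2 and PRDX3 had 0 by this rule. Another 21 probes, named for a member only in words or through a gene number, lie outside the rule, 15 for PRDX3, 2 for PRDX2 and 1 each for SOD2, CAT, PRDX6 and TXNRD1. They are given apart.

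Residual feed intake (RFI) is the feed an animal eats beyond what its growth and maintenance predict, so a low value marks an efficient animal. The RFIneg group held 7 low-RFI pigs fed ad libitum. The RFIplR group held 8 high-RFI pigs that were given only as much feed as the low-RFI line ate. The RFIpl group held 8 high-RFI pigs fed ad libitum. Every pig weighed 115 kg and gave 1 array of Cy3-labelled total RNA. Age and sex are not given in the labels used here, and each pig counts as 1 replicate. RFIneg minus RFIpl asks what selection did under free feeding, RFIplR minus RFIpl what restriction did within the high line, and RFIneg minus RFIplR how the lines compared at matched feeding. These comparisons share groups and are not independent of one another.

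Muscle mitochondria and oxidases release superoxide. Superoxide dismutases turn it into hydrogen peroxide, SOD1 mainly in the cytosol and SOD2 in the mitochondrial matrix. Catalase, glutathione peroxidases and peroxiredoxins then remove the peroxide, and thioredoxin reductase 1 (TXNRD1) returns electrons to thioredoxin, which recharges peroxiredoxins. GPX1, GPX3, GPX4 and TXNRD1 are selenoproteins. GPX3 is unusual in being secreted into plasma, with kidney as its main known source, and adipose tissue also expresses it.

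Levels are log2 signals minus the 75th percentile of the same array, so they compare pigs for 1 probe and never 1 probe with another. Of the 43 member probes, 42 were well above background in all 23 pigs, and the dimmest TXNRD1 probe, A_72_P442714, in 21. Between 41.6% and 79.0% of probes were well above background on an array, and no spot was saturated. Slide 3 held 4 arrays, with 41.6% in RFIneg replicate 7, 45.8% in RFIplR replicate 6, 58.8% in RFIplR replicate 8 and 54.4% in RFIpl replicate 5. All 3 groups were on each of the 6 slides and on both scan days. Of 15 muscle marker genes, 12 were measured. Their mean level lay between 8.64 and 8.86 in RFIneg pigs. It lay between 8.54 and 9.06 in RFIplR pigs and between 8.44 and 8.85 in RFIpl pigs. No other tissue was set beside these values, so they do not test muscle identity.

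The GPX3 result rests on 4 probes of 60 bases. The first 30 bases of each are shown as the array files give them, because 2 of the probes share most of their sequence and so are not separate readings. Capitals mark bases inside a stretch of 50 that these 2 probes hold in common.
A_72_P666610: tgacctggtggcattagactcaccccgtgt
A_72_P440086: AAAGGAAAAAACCAGTTCTAGATTCAGTTG
A_72_P671275: tagtgagcccAAAGGAAAAAACCAGTTCTA
A_72_P637182: agaagttctacacgttcctgaaaacgcctg
A_72_P666610 and A_72_P637182 share no stretch of 20 bases with each other or with the remaining pair. Once group means were subtracted, the 4 probes still followed each other across pigs, with pairwise correlations from 0.903 to 0.972.

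GPX3 was lowest in RFIneg pigs. On its brightest probe, A_72_P666610, the lowest, median and highest levels were 2.40, 2.69 and 3.17 in RFIneg pigs, 2.90, 3.64 and 4.81 in RFIplR pigs, and 3.05, 3.35 and 3.63 in RFIpl pigs. Every RFIneg pig lay below the median of RFIplR pigs and below the median of RFIpl pigs, and all RFIpl pigs lay within the range of RFIplR pigs. The RFIneg range overlapped the lower end of both others. RFIneg replicate 7 was the highest of its group, RFIplR replicate 5 the lowest and RFIplR replicate 8 the highest of theirs, and RFIpl replicate 8 the lowest of the free-fed high line. The means were 2.74 ± 0.26 in RFIneg (SD, n = 7), 3.74 ± 0.61 in RFIplR (SD, n = 8) and 3.36 ± 0.16 in RFIpl (SD, n = 8).

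RFIneg minus RFIpl was -0.61 (SE 0.20) on the log2 scale, which puts RFIpl 1.53-fold above RFIneg. RFIneg minus RFIplR was -0.99 (SE 0.20), with RFIplR 1.99-fold above RFIneg. RFIplR minus RFIpl was 0.38 (SE 0.19), a ratio of 1.30, and it read -0.30 when the signal was recomputed from raw means with the normexp background correction. Within scan day 1 and scan day 2 the differences were -0.62 and -0.60 for RFIneg minus RFIpl, -1.06 and -0.93 for RFIneg minus RFIplR, and 0.43 and 0.33 for RFIplR minus RFIpl. RFIneg pigs lay below RFIpl pigs and below RFIplR pigs on 6 of 6 slides, by slide means. RFIplR minus RFIpl was positive on 5 of 6 slides.

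**Figure D1:**
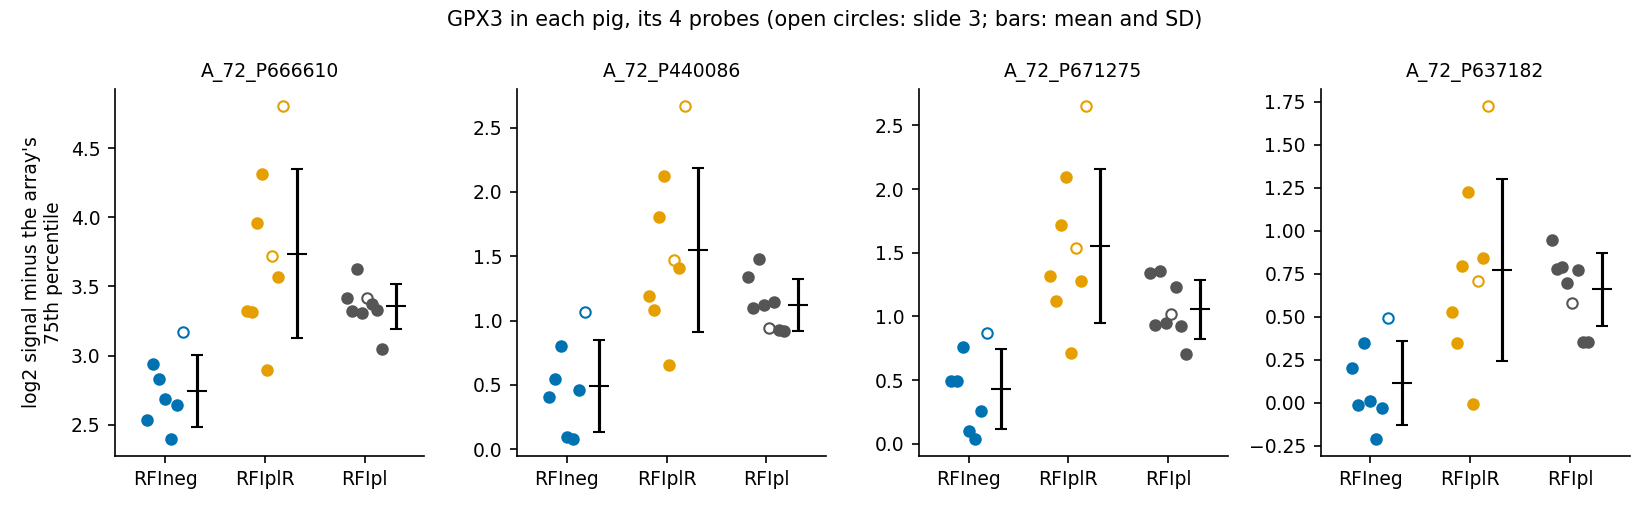
Log2 level relative to the array's 75th percentile (vertical axis) of the 4 GPX3 probes in RFIneg, RFIplR and RFIpl pigs, with 1 point for each pig, open circles for slide 3, and bars for the mean and SD. On A_72_P666610 the RFIneg pigs sit between 2.40 and 3.17, the RFIplR pigs spread from 2.90 to 4.81 and the RFIpl pigs lie close together between 3.05 and 3.63.

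The other probes gave the same order of RFIneg below both high-line groups, and they differed on how far RFIplR lay above RFIpl. For RFIneg minus RFIpl they read -0.63 (A_72_P440086), -0.63 (A_72_P671275) and -0.55 (A_72_P637182). For RFIneg minus RFIplR they read -1.06, -1.12 and -0.66 in the same order of probes. For RFIplR minus RFIpl they read 0.43, 0.50 and 0.11, so A_72_P637182 placed the restricted pigs nearer the free-fed ones.

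In RFIneg minus RFIplR, 0.162% of the 27785 probes fitted passed the threshold of limma adjusted p 0.05, and 3 of the 4 GPX3 probes were among them. This count comes from the values for which GPX3 was chosen and nothing is read from it. It was between 0 and 1 without any 1 of 12 pigs, namely RFIneg replicates 1 to 6, RFIplR replicates 3, 4, 6 and 8, and RFIpl replicates 5 and 7. In RFIneg minus RFIpl 0.122% of probes passed, and in RFIplR minus RFIpl 0.0036%, with 0 GPX3 probes in either.

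The spread of GPX3 is given as a description, since its levels chose it. The SD on A_72_P666610 was 0.611 in RFIplR and 0.161 in RFIpl, where the median SD over all probes was 0.306 in RFIplR and 0.284 in RFIpl. The RFIplR SD was thus above and the RFIpl SD below that median, and their ratio was 3.81. The other probes gave ratios of 3.14, 2.62 and 2.49. Without the 4 arrays of slide 3, RFIneg minus RFIplR was -0.89 (SE 0.18) and RFIneg minus RFIpl was -0.68 (SE 0.17). Without RFIplR replicate 8 alone, RFIneg minus RFIplR was -0.84 (SE 0.16).

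Among the other members, 0 of 39 probes passed limma's adjusted p of 0.05 in any comparison or in the F test over the 3 groups, which 0.137% of all probes passed. At an unadjusted p under 0.05 the counts were 7 of 39 in RFIneg minus RFIpl (11.1% of all probes), 0 in RFIplR minus RFIpl (9.76%) and 6 in RFIneg minus RFIplR (10.2%). The 7 were 4 CAT probes with a positive difference, where 7.2% of all probes passed in that direction, and 3 SOD2 probes with a negative one, where 3.91% did. The 6 were 3 SOD2 and 3 TXNRD1 probes, all negative, where 4.61% of all probes passed in that direction. Differences below 0 numbered 18 of 39 in RFIneg minus RFIpl (44.7% of all probes), 9 of 39 in RFIplR minus RFIpl (46.9%) and 22 of 39 in RFIneg minus RFIplR (45.3%). Groups overlapped for all 39 probes in every comparison, against 0.353%, 0.0792% and 0.227% of all probes that did not overlap in RFIneg minus RFIpl, RFIplR minus RFIpl and RFIneg minus RFIplR.

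**Figure D2:**
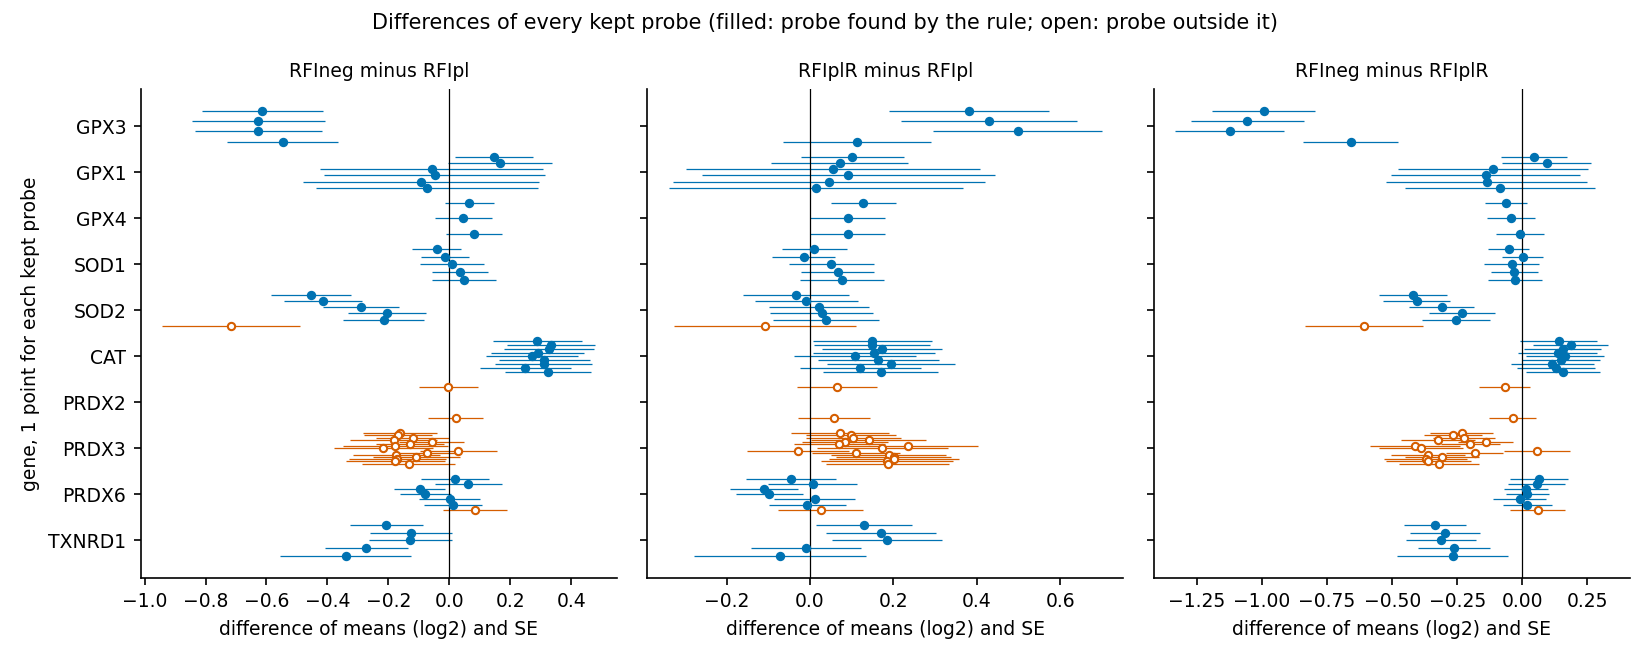
Difference of group means on the log2 scale with its SE (horizontal axis) for every kept probe of each gene (vertical axis) in the 3 comparisons, with filled points for probes found by the rule and open points for probes outside it. With the scanner's background correction, GPX3, SOD2 and TXNRD1 probes lie left of 0 in RFIneg minus RFIpl and in RFIneg minus RFIplR, and all 9 CAT probes lie right of 0.

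SOD2, the manganese superoxide dismutase of mitochondria, stood lower in RFIneg pigs on every probe, without passing the test. On its brightest probe, A_72_P503136, the lowest, median and highest levels were 4.64, 4.70 and 5.35 in RFIneg pigs, 4.89, 5.30 and 5.47 in RFIplR pigs, and 4.83, 5.33 and 5.64 in RFIpl pigs. The other 6 RFIneg pigs lay at or below 4.92, and RFIneg replicate 7, on slide 3, lay alone at 5.35 among the high-line pigs. The means were 4.83 ± 0.26 (SD, n = 7), 5.25 ± 0.21 (SD, n = 8) and 5.28 ± 0.28 (SD, n = 8) in RFIneg, RFIplR and RFIpl.

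For SOD2, RFIneg minus RFIpl was -0.45 (SE 0.13, limma adjusted p = 0.202) and RFIneg minus RFIplR was -0.42 (SE 0.13, limma adjusted p = 0.254). RFIplR minus RFIpl was -0.03 (SE 0.13, limma adjusted p = 0.973). On scan day 1 and scan day 2 the first was -0.47 and -0.46, and the second -0.52 and -0.34. With array weights in limma, the RFIneg minus RFIpl difference of -0.54 had an adjusted p of 0.0364, and over the brightest probes that was the 1 value of a member other than GPX3 past the threshold under any alternative. With the normexp correction RFIneg minus RFIplR read 0.23, the opposite sign. Without RFIneg replicate 7, RFIneg minus RFIpl was -0.54 (SE 0.12) and RFIneg minus RFIplR -0.51 (SE 0.12). Without the 4 arrays of slide 3, RFIneg minus RFIpl was -0.59 with a limma adjusted p of 0.0875.

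The SOD2 probes are shown because 3 of the 5 read largely the same bases. Capitals mark bases inside a stretch of at least 20 that another SOD2 probe also holds, over the first 30 bases.
A_72_P503136: GGATATGCATGGTACATGCTAAAAATCCTA
A_72_P341278: GGATATGCATGGTACATGCTAAAAATCCTA
A_72_P669424: gtcttttaGGATATGCATGGTACATGCTAA
A_72_P613087: gaaaacaaccgtttcttctggaaagagcag
A_72_P648498: gaaggattttttgactgaatcggcagtgcc
A_72_P444413: gaaggagatggtagtacctctgaatttttc
A_72_P503136 and A_72_P341278 are identical over all 60 bases, and A_72_P669424 shares 40 bases with them. For RFIneg minus RFIpl the identical probe read -0.42, the overlapping A_72_P669424 read -0.20, and the separate probes A_72_P613087 and A_72_P648498 read -0.29 and -0.22. The probe outside the rule, A_72_P444413, read -0.72 (SE 0.23, limma adjusted p = 0.232) for RFIneg minus RFIpl and -0.61 (SE 0.23, limma adjusted p = 0.351) for RFIneg minus RFIplR. A_72_P669424 lay nearer to the 2 separate probes than to the pair it overlaps.

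SOD1, the copper and zinc superoxide dismutase of the cytosol, had group means of 5.74 in RFIneg, 5.80 in RFIplR and 5.79 in RFIpl on its brightest probe. That probe, A_72_P721668, ranged from 5.65 to 5.93 in RFIneg pigs, from 5.51 to 5.98 in RFIplR pigs and from 5.67 to 6.05 in RFIpl pigs. RFIneg minus RFIpl was -0.04 (SE 0.08, limma adjusted p = 0.906), RFIplR minus RFIpl was 0.01 (SE 0.08, limma adjusted p = 0.989) and RFIneg minus RFIplR was -0.05 (SE 0.08, limma adjusted p = 0.883). All 5 probes lay between -0.04 and 0.05 for RFIneg minus RFIpl.

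TXNRD1, the cytosolic thioredoxin reductase, had its lowest group mean in RFIneg on all 5 probes and its highest in RFIplR on 3 of them, without passing the test. On A_72_P009866 the lowest, median and highest levels were 2.08, 2.48 and 2.73 in RFIneg pigs, 2.53, 2.78 and 3.16 in RFIplR pigs, and 2.42, 2.65 and 3.05 in RFIpl pigs. All 7 RFIneg pigs lay below the median of RFIplR pigs, and 6 of 7 below the median of RFIpl pigs. RFIneg minus RFIplR was -0.34 (SE 0.12, limma adjusted p = 0.322), RFIneg minus RFIpl was -0.21 (SE 0.12, limma adjusted p = 0.550) and RFIplR minus RFIpl was 0.13 (SE 0.12, limma adjusted p = 0.790). All 5 probes were negative in both comparisons with RFIneg, from -0.34 to -0.26 against RFIplR and from -0.34 to -0.13 against RFIpl. RFIneg replicate 7, on slide 3, was the lowest RFIneg pig on all 5 probes. Without it the brightest probe read -0.27 (SE 0.12) against RFIplR and -0.14 (SE 0.12) against RFIpl. With the normexp correction RFIneg minus RFIplR read 0.12 on the brightest probe.

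CAT, catalase, had a positive difference in place of the negative ones of SOD2 and TXNRD1, without passing the test. On A_72_P223317 the lowest, median and highest levels were 4.82, 5.04 and 5.91 in RFIneg pigs, 4.78, 5.06 and 5.38 in RFIplR pigs, and 4.45, 4.93 and 5.21 in RFIpl pigs. RFIneg minus RFIpl was 0.29 (SE 0.15, limma adjusted p = 0.477), and all 9 probes were positive, from 0.25 to 0.34. The difference was 0.54 within scan day 1 and -0.03 within scan day 2, so it stood on the first day alone. RFIneg replicate 7 was the highest pig of all, and without it the difference was 0.17 (SE 0.13). RFIplR minus RFIpl was 0.15 (SE 0.14, limma adjusted p = 0.810), and RFIneg minus RFIplR was 0.14 (SE 0.15, limma adjusted p = 0.810), or 0.019 without RFIneg replicate 7.

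**Figure D3:**
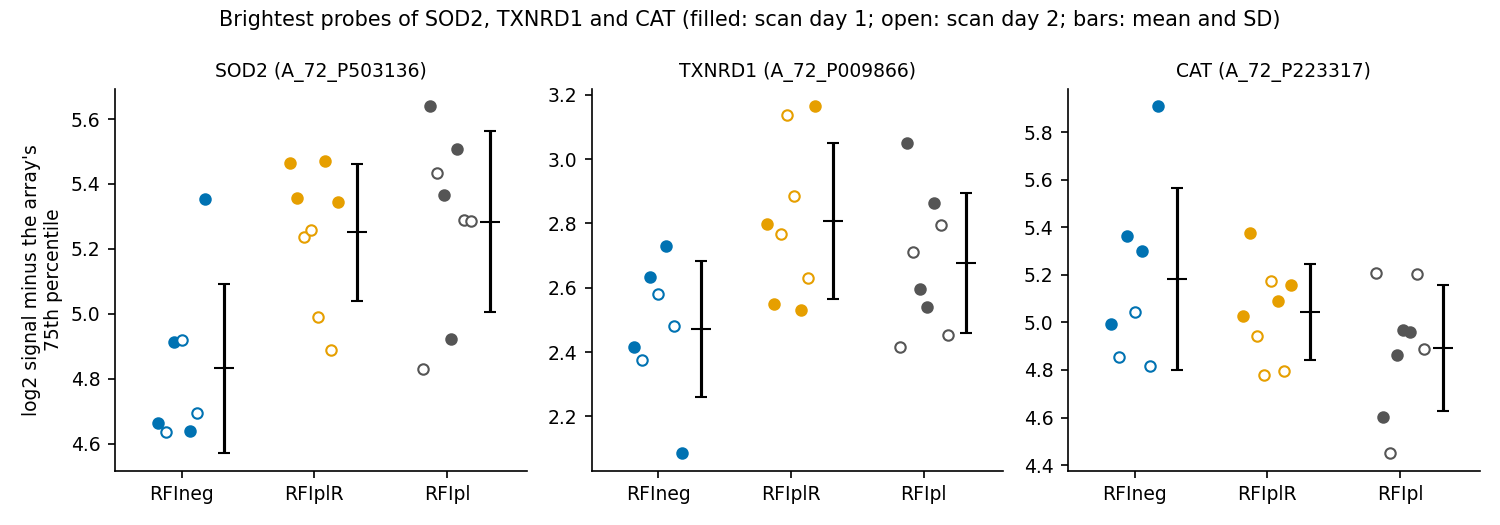
Log2 level relative to the array's 75th percentile (vertical axis) of the brightest probes of SOD2, TXNRD1 and CAT in RFIneg, RFIplR and RFIpl pigs, with filled points for scan day 1, open points for scan day 2, and bars for the mean and SD. The highest RFIneg point in the SOD2 panel, at 5.35, and in the CAT panel, at 5.91, is the same pig, RFIneg replicate 7.

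GPX1, the cytosolic and mitochondrial glutathione peroxidase, showed no group difference past the test and a wide spread on some of its probes. On its brightest probe, A_72_P623069, the lowest, median and highest levels were 5.82, 6.42 and 6.77 in RFIneg pigs, 6.09, 6.33 and 6.72 in RFIplR pigs, and 5.89, 6.19 and 6.71 in RFIpl pigs. RFIneg minus RFIpl was 0.15 (SE 0.13, limma adjusted p = 0.744), RFIplR minus RFIpl was 0.10 (SE 0.12, limma adjusted p = 0.874) and RFIneg minus RFIplR was 0.05 (SE 0.13, limma adjusted p = 0.948).

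On 4 of the 6 GPX1 probes, 1 animal stood far from the rest. RFIneg replicate 3 read 1.44 on A_72_P088441, 0.745 on A_72_P689751, 0.002 on A_72_P684140 and -0.522 on A_72_P564112, against 3.63, 2.94, 2.33 and 1.60 in the next lowest RFIneg pig. On the 2 brightest probes this pig was also the lowest of its group, at 5.82 and 4.91, and much nearer to the others. Without it, RFIneg minus RFIpl on the 4 dimmer probes was between 0.31 and 0.34, against values between -0.09 and -0.05 with it. The sequences show which probes the gap separates. Capitals mark bases inside a stretch of at least 20 that another GPX1 probe holds.
A_72_P623069: AGTGCCCCCTCCTACCCCTGCTGCTTGGCA
A_72_P655960: agcagtgcctagAGTGCCCCCTCCTACCCC
A_72_P088441: cgggattttatccatgAAAGTGTTTCCTCT
A_72_P684140: AAAGTGTTTCCTCTAAACCTATGTGGAGGA
A_72_P689751: tcacctggtctccagtgtgtcgcaatgaca
A_72_P564112: ttgagaacgtagcgtcgcttgaggcacaac
The 2 brightest probes share 48 bases and are close to 1 reading. The 4 dimmer ones fall at separate sequences apart from A_72_P088441 and A_72_P684140, which share 39 bases, and they still placed the same pig lowest.

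**Figure D4:**
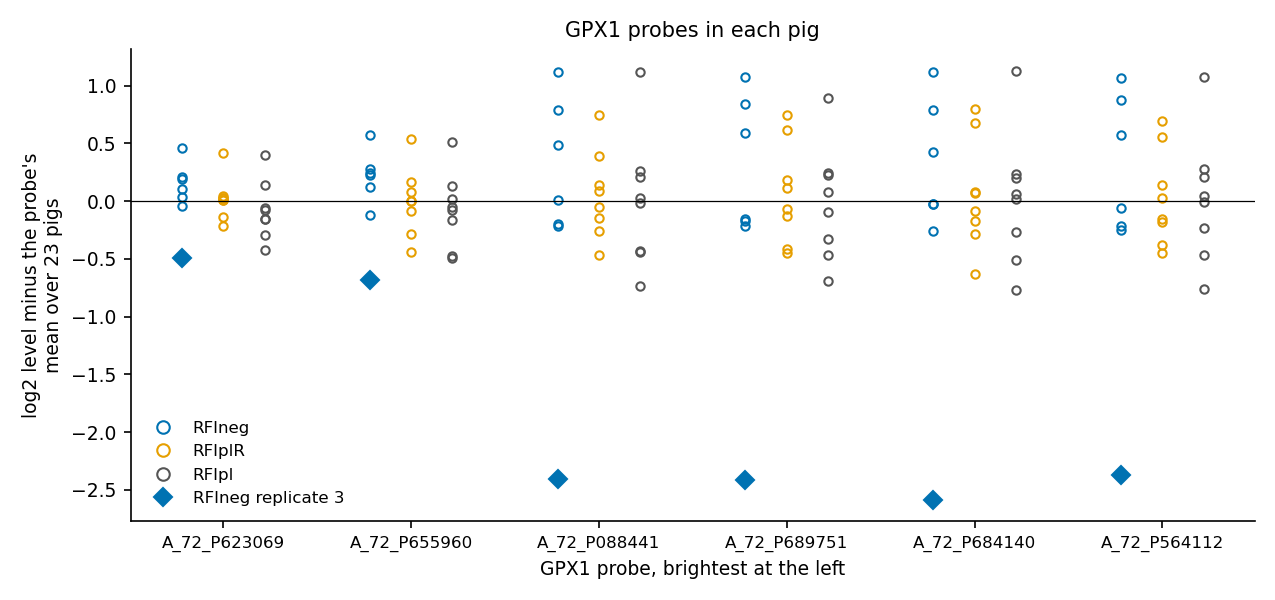
Log2 level minus the mean of each GPX1 probe over the 23 pigs (vertical axis) for the 6 probes, brightest at the left (horizontal axis), in RFIneg, RFIplR and RFIpl pigs, with a filled diamond for RFIneg replicate 3. On the 4 dimmer probes the diamond lies far below every other pig, and on the 2 brightest it is the lowest point by a small margin.

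GPX4, which reduces lipid hydroperoxides in membranes, varied little. Its brightest probe, A_72_P388853, averaged 5.18 ± 0.09 in RFIneg (SD, n = 7), 5.24 ± 0.15 in RFIplR (SD, n = 8) and 5.11 ± 0.15 in RFIpl (SD, n = 8). RFIneg minus RFIpl was 0.07 (SE 0.08, limma adjusted p = 0.833), RFIplR minus RFIpl was 0.13 (SE 0.08, limma adjusted p = 0.629) and RFIneg minus RFIplR was -0.06 (SE 0.08, limma adjusted p = 0.857).

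PRDX6, a peroxiredoxin that uses glutathione, averaged 2.74 ± 0.16 in RFIneg (SD, n = 7), 2.68 ± 0.28 in RFIplR (SD, n = 8) and 2.72 ± 0.15 in RFIpl (SD, n = 8) on A_72_P641705. RFIneg minus RFIpl was 0.02 (SE 0.11, limma adjusted p = 0.972). The 6 probes lay between -0.10 and 0.06 in that comparison.

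PRDX3, the mitochondrial peroxiredoxin, and PRDX2, a cytosolic one abundant in red blood cells, could be read only on probes outside the rule. The brightest PRDX3 probe, A_72_P496759, averaged 5.35 ± 0.29 in RFIneg (SD, n = 7), 5.58 ± 0.19 in RFIplR (SD, n = 8) and 5.51 ± 0.20 in RFIpl (SD, n = 8). RFIneg minus RFIplR was -0.23 (SE 0.12, limma adjusted p = 0.523), and 14 of the 15 probes were negative, where 45.3% of all probes were. None of the 15 passed limma's adjusted p of 0.05, and 9 were lower at an unadjusted p under 0.05, where 4.61% of all probes were. Most of these probes followed each other across pigs, with a median correlation of 0.873, so they are not separate readings. The exception, A_72_P568344, read 0.06 and did not follow the other PRDX3 probes, with correlations down to -0.01 once group means were subtracted. The brightest PRDX2 probe, A_72_P402683, ranged from 5.45 to 5.90 in RFIneg pigs, from 5.57 to 5.97 in 7 RFIplR pigs and from 5.42 to 6.01 in RFIpl pigs, and the spot of RFIplR replicate 2 was an outlier and left out. RFIneg minus RFIpl for PRDX2 was -0.0028 (SE 0.10, limma adjusted p = 0.995).

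Related genes were read in 6 lists, by the brightest kept probe of each gene. These lists and the cell type markers were read with the scanner's background correction only. Their signs were not rechecked with normexp, which reversed several member differences. No gene of any of the 6 lists passed limma's adjusted p of 0.05, against 3 lower and 0 higher of 4034 measured genes in RFIneg minus RFIpl, 0 in RFIplR minus RFIpl, and 2 higher and 5 lower in RFIneg minus RFIplR.

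Other peroxidases, dismutases and thioredoxins lay mostly above 0 in RFIneg minus RFIpl, with 11 of 12 measured genes above 0 and a median of 0.17, against 56.2% above 0 and a median of 0.03 over all measured genes. At an unadjusted p under 0.05, 4 of the 12 passed above 0, where 7.93% of all measured genes did. They were MSRB1, MSRA, PRDX5 and PRDX4, the last named after its value was seen. MSRB1, a selenoprotein that repairs oxidised methionine, averaged 7.02 ± 0.24, 6.76 ± 0.32 and 6.64 ± 0.13 in RFIneg, RFIplR and RFIpl (SD), with RFIneg minus RFIpl of 0.38 (SE 0.13, limma adjusted p = 0.248). PRDX5, a peroxiredoxin found in mitochondria and peroxisomes, differed by 0.16 (SE 0.07, limma adjusted p = 0.443) and PRDX4, one of the endoplasmic reticulum, by 0.26 (SE 0.12, limma adjusted p = 0.443). TXN, thioredoxin itself, which did not pass, read 0.22 (SE 0.12, limma adjusted p = 0.528). MSRA, another methionine sulfoxide reductase, read 0.32 on its brightest probe and between -0.34 and -0.27 on its other probes, so its probes disagreed in direction.

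Selenoproteins and genes of selenium handling lay mostly above 0 in RFIplR minus RFIpl, with 9 of 11 above 0 and a median of 0.09. Over all measured genes 55.4% were above 0, with a median of 0.02. SELENOK, a selenoprotein of the endoplasmic reticulum, differed by 0.22 (SE 0.08, limma adjusted p = 0.268), and SELENOS, of the same compartment, by 0.11 (SE 0.08, limma adjusted p = 0.742). SELENOT read 0.08 and SELENOM 0.37 in the same comparison, and the other SELENOT probes lay between -0.16 and 0.26. In RFIneg minus RFIplR, 9 of the 11 were below 0, with a median of -0.09, where 46.5% of measured genes were below 0. SELENOS read -0.24 (SE 0.09, limma adjusted p = 0.335) in that comparison.

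The pathway of NRF2, the transcription factor that induces antioxidant genes, held 8 measured genes, its inhibitor KEAP1 and partner MAFF among them, with 3 above and 5 below 0 in RFIneg minus RFIpl and a median of -0.06. ME1, malic enzyme, which makes NADPH, averaged 0.46 ± 0.23 in RFIneg, 1.12 ± 0.55 in RFIplR and 1.03 ± 0.38 in RFIpl (SD), with RFIneg minus RFIplR of -0.65 (SE 0.21, limma adjusted p = 0.262) and RFIneg minus RFIpl of -0.57 (SE 0.21, limma adjusted p = 0.298). ABCC2, an export pump for conjugates, read -0.42 (SE 0.13, limma adjusted p = 0.219) in RFIneg minus RFIpl. NQO1 and FTH1, known NRF2 targets, read 0.15 and 0.14.

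Glutathione enzymes had 4 genes above and 7 below 0 of 11 measured in RFIneg minus RFIpl, with a median of -0.06. PGD, which makes NADPH, read -0.21, the glutaredoxins GLRX and GLRX5 read -0.31 and -0.39, and MGST1, a microsomal glutathione transferase, read -0.37. Sources of reactive oxygen had 2 above and 4 below 0 of 6 measured in RFIneg minus RFIpl, and 4 above and 2 below 0 in RFIneg minus RFIplR, with MAOA, an amine oxidase, at -0.44 (SE 0.17, limma adjusted p = 0.365) in the second. MAOB read -0.39 in that comparison, and CYBA, part of the NADPH oxidase, read 0.10. Of 6 metal-binding genes, 3 were above and 3 below 0 in RFIneg minus RFIpl, with TFRC, the transferrin receptor, at -0.56 (SE 0.26, limma adjusted p = 0.427). The metallothioneins MT1A and MT3 read -0.66 (SE 0.73) and 0.22 (SE 0.13). HAMP, hepcidin, read -0.01 on its brightest probe and 0.28 on its other probe.

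The genes whose levels followed GPX3 most closely across the 23 pigs were ranked by Pearson's r with A_72_P666610 after group means were subtracted from both, over 3956 genes. The median r was -0.08, and 0.657% of genes had an r over 0.6. This ranking is a description with no test, and all values share the same arrays. ABHD4, a lipase-like hydrolase, came first with an r of 0.87, and GATA3, FMO1, HOPX, HBS1L, CST7, NCSTN and ARF4 followed with 0.76, 0.75, 0.74, 0.72, 0.71, 0.67 and 0.67. The lowest were TET1, POT1, RFC5 and CCNK, with -0.82, -0.74, -0.69 and -0.69. Without the 2 pigs farthest from the median of GPX3, r was 0.75 for ABHD4, 0.66 for GATA3, 0.62 for FMO1, 0.49 for HOPX, 0.51 for HBS1L, 0.59 for CST7, 0.45 for NCSTN and 0.33 for ARF4. It was then -0.64 for TET1, -0.73 for POT1, -0.55 for RFC5 and -0.45 for CCNK. Each of these values was smaller in size than with all 23 pigs, and the ranking over all genes was not redone. The 2 pigs left out were RFIplR replicate 8, with a GPX3 level of 4.81, and RFIplR replicate 4, with 4.31.

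ABHD4 also followed GPX3 in its group differences, with RFIneg minus RFIplR of -0.73, RFIneg minus RFIpl of -0.32 and RFIplR minus RFIpl of 0.41. Its r with GPX3 was 0.98 within RFIplR, 0.79 within RFIpl and -0.11 within RFIneg. The restricted pigs, in which r was highest, also had the widest range of GPX3. Of the other members, SOD2 had an r of 0.26 with GPX3, TXNRD1 0.24, GPX4 0.10, SOD1 0.07, PRDX3 0.05, GPX1 -0.01, CAT -0.02 and PRDX6 -0.18. SELENOP, the plasma selenium carrier, had 0.44.

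**Figure D5:**
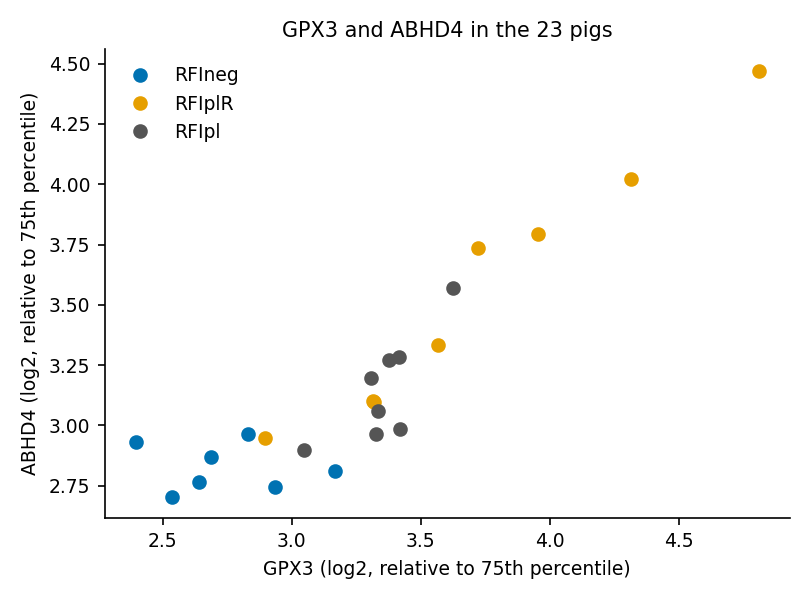
Log2 level relative to the array's 75th percentile of ABHD4 (vertical axis) against GPX3 (horizontal axis) in the 23 pigs, with 1 point for each pig in RFIneg, RFIplR and RFIpl. The RFIplR points run along a line to the highest GPX3 level of 4.81, and the RFIneg points form a cluster at the low end.

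Fat is a known site of GPX3 expression, and no adipocyte marker passed limma's adjusted p of 0.05 in any comparison. Of 12 measured of 13 adipocyte markers, 0 were above and 12 below 0 in RFIneg minus RFIpl, with a median of -0.49, where 43.8% of all measured genes were below 0. At an unadjusted p under 0.05, 3 of the 12 passed below 0, where 4.44% of all measured genes did. In RFIneg minus RFIplR 9 were below 0 with a median of -0.35, where 46.5% of all measured genes were below 0. In RFIplR minus RFIpl 8 were below 0 with a median of -0.14, where 44.6% of all measured genes were. The mean level of the 12 genes ranged from 0.14 to 1.54 in RFIneg pigs, from 0.18 to 1.87 in RFIplR pigs and from -0.05 to 2.59 in RFIpl pigs. LIPE, hormone-sensitive lipase, read -0.72 (SE 0.26, limma adjusted p = 0.290) in RFIneg minus RFIpl on its brightest probe. Its other probes lay between -0.50 and -0.17. Across pigs, with group means subtracted, the mean of the adipocyte list had an r of 0.10 with GPX3, ADIPOQ 0.02, FABP4 0.19 and LIPE 0.24. In bulk muscle, fewer cells of a type and less RNA per cell cannot be told apart, and the part of adipocytes in the GPX3 difference was not tested.

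Other cell types gave mixed values beside GPX3. Over all measured genes, 56.2% were above 0 in RFIneg minus RFIpl, 55.4% in RFIplR minus RFIpl and 53.5% in RFIneg minus RFIplR. Leukocyte and macrophage markers had 1 of 9 measured above 0 in RFIneg minus RFIpl, with a median of -0.21. They had 4 of 9 above 0 in RFIneg minus RFIplR, with a median of -0.12. In RFIplR minus RFIpl, where GPX3 read 0.38, 2 of 9 were above 0, with a median of -0.24. At an unadjusted p under 0.05, by limma, 2 of the 9 passed below 0 there, where 4.86% of all measured genes did. With group means subtracted, the mean level of these markers had an r of 0.56 with GPX3 across pigs. That mean level ranged from -1.99 to -1.35 in RFIneg pigs, from -2.31 to -0.95 in RFIplR pigs and from -1.75 to -0.59 in RFIpl pigs. Endothelial markers had 2 of 6 above 0 in RFIneg minus RFIpl and 4 of 6 in RFIneg minus RFIplR. Of 3 red blood cell markers 1 was above 0 in RFIneg minus RFIpl, with CA1 at 0.43 (SE 0.20), HBA1 at -0.50 (SE 0.37) and HBB at -0.12 (SE 0.44). Fast fibre genes had 11 of 11 above 0 in RFIneg minus RFIplR, with a median of 0.11, where all measured genes had a median of 0.01. At an unadjusted p under 0.05, by limma, 0 of the 11 passed, where 5.11% of all measured genes passed above 0. The mean level of the fast fibre genes had an r of -0.35 with GPX3. For the mean levels of red blood cell and endothelial markers r was 0.378 and 0.37. It was 0.235 for slow fibre genes and 0.055 for fibroblast and matrix genes. None of these r values, nor that of the leukocyte markers, was recomputed without the pigs of highest GPX3. Slow fibre genes had 3 of 9 above 0 in RFIneg minus RFIplR, with a median of -0.02. Fibroblast and matrix genes had 4 of 10 above 0 in RFIneg minus RFIpl, with a median of -0.04. FN1, fibronectin, and FBN1, fibrillin, read -0.69 and -0.60, and the collagen genes COL3A1 and COL1A2 read 0.26 and 0.18. The part of these cell types in the GPX3 values was not tested.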

How the data were processed

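Longissimus muscle RNA of 23 pigs was measured on 1-colour arrays of 60-base probes, 1 array per pig. Per the file headers, the scanner software had background-subtracted each spot's intensity before deposit. The deposited log2 table of 26410 spots equals log2 of those intensities minus a constant for each array, and the submitters' processing notes name R 2.10.0. Here log2 of the deposited processed intensity was taken relative to each array's 75th percentile over 43803 non-control spots. Outlier spots were treated as missing and spots of a probe averaged, which left 470 missing values among the probes fitted. A probe entered the fit if 6 or more arrays of some group had it well above background (27785 of 43603). The 3 groups were fitted together with limma 3.58.1 in R 4.3.3, without a block, with Benjamini-Hochberg adjustment over all kept probes and a threshold of 0.05. On simulated data with 100 probes changed by 1 on the log2 scale, the fit recovered 77 in RFIneg minus RFIpl, 85 in RFIplR minus RFIpl and 80 in RFIneg minus RFIplR. Of 100 changed by 0.5 it recovered 23, 28 and 28 in the same comparisons, so most differences of the size seen for the members other than GPX3 would not be called. Genes outside the members were named through the RefSeq gene table, a list of current and older gene symbols, and symbols in the array files. HBA1 and HBB were named by hand from the probe descriptions. Up to 4 genes with the lowest F-test p were named in each list of related genes, and the 8 highest and 4 lowest by likeness to GPX3. The named cell type markers and SELENOP fall outside that rule and were chosen after their values were seen. The brightest kept probe stands for a gene. A gene that the rule names is not reported here. The members and lists were chosen with earlier results of these data known. The number of arrays limits the precision. Replicate numbers were not used to pair pigs. Same-numbered pigs of different groups had residual correlations from -0.30 to 0.33. Differently numbered pigs were not set beside them, so whether the numbers pair pigs was not decided. Alternatives changed the centring, background correction, filter, blocks, weights and pigs.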

Additional observations from a re-analysis of the deposited data

Results flagged for a closer look

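Of 135 groups of pigs tested for a pig set apart from its group by Dixon's criterion, 13 held one, where chance alone gives about 1 in 20. RFIneg replicate 3 was far below its group on GPX1 probes A_72_P088441, A_72_P689751, A_72_P684140 and A_72_P564112, with levels of 1.436, 0.745, 0.002 and -0.522. RFIneg replicate 7 was above its group on SOD2 probe A_72_P503136, with 5.354, and on SOD1 probes A_72_P733208, A_72_P722878 and A_72_P741111, with 4.599, 4.522 and 4.42. RFIplR replicate 7 was above its group on GPX1 probe A_72_P623069, with 6.723, and below it on SOD1 probes A_72_P721668 and A_72_P722878, with 5.514 and 3.771. RFIpl replicate 3 was above its group on TXNRD1 probe A_72_P517550, with 1.816, and RFIpl replicate 5 was below it on PRDX3 probe A_72_P496759, with 5.079. Several of these probes share sequence, so the 13 are not separate events.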

How the results depend on the processing

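The GPX3 difference RFIneg minus RFIpl kept its sign under every alternative run, and without any 1 pig it lay between -0.68 and -0.56. RFIneg minus RFIplR lay between -1.11 and -0.84 without any 1 pig and was -0.50 with the normexp background correction. RFIplR minus RFIpl lay between 0.23 and 0.50 without any 1 pig and was -0.30 with normexp. The normexp correction moved the median of all probes to 0.08, 0.21 and -0.14 in RFIneg minus RFIpl, RFIplR minus RFIpl and RFIneg minus RFIplR, and GPX3 stood at -0.88, -0.51 and -0.35 relative to those medians. The cause was not tested.

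Probes past the threshold in RFIneg minus RFIpl numbered 34, and 0 with normexp (399 at an unadjusted p under 0.05, by limma), 20 in the deposited values, 22 with no filter, 18 with probes well above background on all arrays, 19 with slide as a fixed block, 52 with trend and robust, 119 with array weights and 18 without slide 3, an alternative chosen after seeing the data. In RFIplR minus RFIpl the count was 1, and 2 with slide as a random block, 3 with scan day, and 0 with median centring, normexp, no filter, slide as a fixed block, the replicate block, trend and robust, without slide 3 and with only the 2 groups compared. In RFIneg minus RFIplR it was 45, and 23 with median centring, 0 with normexp (1038 at an unadjusted p under 0.05, by limma), 21 in the deposited values, 18 with no filter, 25 with slide as a fixed block and with only the 2 groups compared, 98 with slide as a random block, 20 with the replicate block, 76 with trend and robust, 99 with array weights and 15 without slide 3. For the F test it was 38, and 0 with normexp, 22 with no filter, 66 with probes well above background on all arrays, 138 with slide as a random block, 19 with the replicate block, 92 with trend and robust, 164 with array weights and 20 without slide 3. Without any 1 pig the counts lay between 22 and 40, 0 and 7, 18 and 68, and 24 and 70, in RFIneg minus RFIpl, RFIplR minus RFIpl, RFIneg minus RFIplR and the F test.

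Member probes past the threshold in RFIneg minus RFIpl were 0, and 2 with array weights and 1 with only the 2 groups compared. In RFIneg minus RFIplR they were 3, and 1 with median centring, quantile normalization and scan day, and 0 with normexp, no filter, slide as a fixed block, the replicate block, without slide 3 and with only the 2 groups compared, and between 0 and 3 without any 1 pig. The 3 in the main fit were all GPX3 probes, in a comparison that 0.162% of all probes passed. GPX3 was chosen by these values, so nothing is read from that count. Among the brightest probes of the other members, SOD2 in RFIneg minus RFIpl passed with array weights (-0.54, limma adjusted p = 0.0364). Of 1050 other-member values under alternatives, 56 had the opposite sign, all of differences that did not pass the test.

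With normexp, RFIplR minus RFIpl turned to -0.70 for CAT, -0.74 for GPX1, -0.73 for GPX4, -0.84 for SOD1, -0.45 for TXNRD1, -0.48 for PRDX2 and -0.79 for PRDX3. RFIneg minus RFIpl turned to -0.10 for GPX1, -0.15 for GPX4 and -0.17 for PRDX6, and RFIneg minus RFIplR to 0.58 for GPX4, 0.57 for SOD1, 0.23 for SOD2, 0.12 for TXNRD1, 0.24 for PRDX2 and 0.40 for PRDX3. With the mean of a gene's probes, values turned to -0.056 for GPX1 in RFIneg minus RFIplR, -0.013 for PRDX6 and 0.0076 for SOD1 in RFIneg minus RFIpl, 0.0089 for SOD2 in RFIplR minus RFIpl, and 0.0089, -0.035 and 0.044 for PRDX2 in RFIneg minus RFIpl, RFIplR minus RFIpl and RFIneg minus RFIplR. With quantile normalization, RFIplR minus RFIpl turned to -0.057 for SOD1 and -0.0071 for PRDX2, and RFIneg minus RFIpl to -0.014 for PRDX6. PRDX6 turned to -0.047 in RFIneg minus RFIpl and -0.021 in RFIneg minus RFIplR with array weights, and to -0.019 in RFIneg minus RFIpl without slide 3. With median centring, RFIplR minus RFIpl turned to 0.0057 for PRDX6 and 0.019 for SOD2, and RFIneg minus RFIpl to 0.020 for PRDX2. With slide as a fixed block, RFIplR minus RFIpl turned to -0.0032 for SOD1 and RFIneg minus RFIpl to 0.047 for PRDX2, which was 0.014 with slide as a random block and 0.0062 with scan day. Without any 1 pig, the values that changed sign lay between -0.021 and 0.14 for GPX1 in RFIneg minus RFIplR, between -0.043 and 0.042 for PRDX2 and -0.026 and 0.064 for PRDX6 in RFIneg minus RFIpl, and between -0.11 and 0.0083 for PRDX6, -0.016 and 0.051 for SOD1 and -0.098 and 0.019 for SOD2 in RFIplR minus RFIpl.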
